A study of Mus musculus with 12 samples.

Results

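The 33 genes described here code for the constitutive proteasome and for Nfe2l1, a transcription factor known for driving proteasome genes. They are every gene of the count table called Psma, Psmc or Psmd with a number, the 4 non-catalytic beta genes Psmb1 to Psmb4, and Nfe2l1, out of 55216 genes in all. Their mRNA was counted by RNA-seq in Myc-CaP, a line grown from a prostate tumor of a Myc-transgenic FVB/NJ mouse, so Ctrl and treated cells alike carry that drive. Cells were kept without drug (Ctrl) or exposed over 48 h to 2 μM oxaliplatin (Oxali, a DNA-crosslinking platinum compound), with interferon γ at 200 or 2000 pg (IFN200, IFN2000; the labels give no volume), or with Oxali plus either IFNγ dose (Combo200, Combo2000). Each of the 6 groups had 2 libraries, 12 in all, from a single line. No label says that the libraries of a group came from separate cultures, so p-values measure the spread between these libraries, which may be technical. Groups follow the sample titles. A second label on the 3 single treatments disagrees with the titles, naming IFNγ 2000 pg for the libraries titled Oxali, Oxali for those titled IFNγ 200 pg, and IFNγ 200 pg for those titled IFNγ 2000 pg, so each statement on a single treatment holds for the libraries titled that way. Against Ctrl, 8911 genes were called in the libraries titled Oxali, 9052 in Combo200 and 9113 in Combo2000, compared with 15 in those titled IFNγ 200 pg and 2221 in those titled IFNγ 2000 pg. Psmb9, an immunoproteasome gene known to be induced by IFNγ, read 2.56 and 2.83 CPM (counts per library scaled to a common total) at the titled 200 pg and 14.6 and 13.2 at 2000 pg. Both sets of values run the way the titles say.

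The proteasome is the barrel-shaped protease that degrades ubiquitin-tagged proteins and supplies the peptides displayed by MHC class I. Its core particle stacks rings of alpha subunits, which gate the barrel, on rings of beta subunits, of which Psmb5, Psmb6 and Psmb7 carry the catalytic sites and Psmb1 to Psmb4 do not. The cap on each end has a base, where the ATPases Psmc1 to Psmc6 unfold the substrate and the large scaffold proteins Psmd1 and Psmd2 and the ubiquitin receptor Psmd4 sit, and a lid that holds the deubiquitinase Psmd14. Psmd5, Psmd9 and Psmd10 are chaperones that help to assemble the base and leave the finished particle. Nfe2l1 is made at the endoplasmic reticulum and is normally destroyed by the proteasome itself. When proteasome activity drops it is released, cleaved by Ddi2 after Ngly1 removes its sugars, and binds antioxidant response elements with small Maf partners, which raises proteasome genes together. That control acts on the protein, and transcript counts do not measure it.

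Promoter sequences are shown for 5 of the genes because the members are known for moving together. RefSeq windows of 300 bases on GRCm38.p6, from 250 bases before to 50 after the annotated start, were found for 27 of the 33 genes in 33 windows, since Nfe2l1 has 5 and Psma6 and Psmc2 have 2 each. Psma8, Psmb1, Psmb2, Psmc3, Psmd3 and Psmd7 had none. The 5 shown are Psma5 and Psmb4, the alpha and non-catalytic beta genes that changed most with Oxali, Psmd12 and Psmc6, which hold the antioxidant response element core, and Nfe2l1 itself. Each is written 5′ to 3′ on the gene's own strand in lower case, with one motif in capitals, in either orientation: GAAANNGAA, a core repeat of the interferon-stimulated response element, in Psmb4, TGACNNNGC, the antioxidant response element core, in Psmd12 and Psmc6, and CCAAT, which binds NF-Y, in Nfe2l1. No motif is marked in Psma5. The windows lie at chr3:108256676-108256975 (plus strand), chr3:94886909-94887208 (minus), chr11:107479278-107479577 (plus), chr14:45329574-45329873 (plus) and chr11:96829919-96830218 (minus). The genes they belong to are protein-coding, and Psma5 spans chr3:108256926-108279974, Psmb4 chr3:94884093-94886961 and Nfe2l1 chr11:96817414-96829968 in the GENCODE annotation of GRCm38.
Psma5: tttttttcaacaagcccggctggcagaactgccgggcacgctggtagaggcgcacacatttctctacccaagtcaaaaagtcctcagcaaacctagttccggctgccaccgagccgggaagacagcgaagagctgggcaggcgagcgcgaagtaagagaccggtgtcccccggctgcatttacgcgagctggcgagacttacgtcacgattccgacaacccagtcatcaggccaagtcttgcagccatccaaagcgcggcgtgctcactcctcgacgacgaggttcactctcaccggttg
Psmb4: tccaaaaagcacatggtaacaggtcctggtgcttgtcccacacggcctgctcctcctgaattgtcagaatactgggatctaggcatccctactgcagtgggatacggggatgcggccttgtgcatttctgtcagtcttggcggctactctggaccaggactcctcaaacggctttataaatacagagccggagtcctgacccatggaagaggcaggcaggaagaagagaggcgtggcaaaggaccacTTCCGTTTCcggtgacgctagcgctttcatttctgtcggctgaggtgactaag
Psmd12: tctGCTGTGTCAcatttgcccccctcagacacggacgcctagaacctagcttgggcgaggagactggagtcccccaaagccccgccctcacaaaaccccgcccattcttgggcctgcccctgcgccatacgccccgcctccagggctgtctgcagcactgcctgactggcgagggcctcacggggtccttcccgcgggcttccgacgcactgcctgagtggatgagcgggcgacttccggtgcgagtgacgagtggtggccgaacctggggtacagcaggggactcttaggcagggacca
Psmc6: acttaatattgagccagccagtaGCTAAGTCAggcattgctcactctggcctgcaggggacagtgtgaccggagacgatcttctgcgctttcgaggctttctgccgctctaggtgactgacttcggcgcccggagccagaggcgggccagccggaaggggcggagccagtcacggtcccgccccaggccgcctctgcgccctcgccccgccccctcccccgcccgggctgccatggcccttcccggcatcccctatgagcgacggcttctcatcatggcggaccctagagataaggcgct
Nfe2l1: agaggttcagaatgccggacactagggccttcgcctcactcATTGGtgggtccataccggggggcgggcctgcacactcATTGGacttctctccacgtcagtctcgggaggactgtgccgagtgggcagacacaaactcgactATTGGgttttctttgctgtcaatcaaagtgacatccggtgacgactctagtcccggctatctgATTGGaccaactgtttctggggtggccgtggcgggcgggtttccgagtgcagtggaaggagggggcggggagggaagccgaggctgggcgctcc

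The letters TGACNNNGC, read on both strands, were in 3 of the 33 member windows (9.09%), those of Psmc6, Psmd12 and Psmd9, and in 13.0% of the 25427 windows of all genes in the table. CCAAT was in 15 member windows (45.5%, 12 genes) against 37.6% of all. Of those 15 windows 4 belong to Nfe2l1, which has 5 windows that partly overlap, and the one shown above holds 4 copies. The E box CACGTG, a site that Myc can bind, was in 2 member windows, those of Psma4 and Psmd9 (6.06% against 7.59%). TTCNNNGAA, the γ-activated sequence, was in 1 window, that of Psmd2 (3.03% against 8.02%), and GAAANNGAA in 5, those of Psmb3, Psmb4, Psmc2, Psmd4 and Psmd9 (15.2% against 8.33%). A match is a run of letters, not a shown binding site.

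Library totals ran from 18749975 to 25931516 counts. The tested set held 13177 genes, 32 of the 33 members among them. Psma8, the alpha subunit known from testis, had 1 count in each of 2 libraries and none in the other 10 and was not tested. Of 4 epithelial markers, Krt8 (353 to 628 counts) was detected, whereas Krt18 and Cdh1 stayed at 6 counts or fewer and Epcam at 0. IFN2000 replicate 2 held 182 counts over 10 T-cell markers against 13 to 26 in the other 5 libraries without Oxali and 62 to 99 in the 6 with it (Cd4 33 counts, Cd8a 0 in every library), and IFN200 replicate 1 held 259 over 10 heart-muscle markers against 15 to 136 (Myh7 58 counts). With Oxali the T-cell sum was mostly Lck (24 to 40 counts), Cd28 (20 to 36) and Trac (9 to 24). Cd2, Cd3d, Cd3e, Cd3g and Cd4 held at most 2 counts each there, against 12, 13, 4, 10 and 33 in IFN2000 replicate 2. The summed heart-muscle count, mostly Tnnt2, was also higher in the 6 libraries with Oxali (82 to 136) than in the others (15 to 27) apart from IFN200 replicate 1. The part of these reads in the results was not tested.

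In Ctrl the 32 expressed members differed widely in level. Per kilobase of the longest coding transcript, Psmd8 (252 CPM per kb), Psmb4 (251), Psmd2 (249), Psma7 (223) and Psma6 (214) were highest and the chaperones Psmd10 (29.9), Psmd9 (24.6) and Psmd5 (19.2) lowest, a 13.1-fold span. The median of the 31 subunit and chaperone genes was 134 CPM per kb, and Nfe2l1 stood at 77.9. Neighbours in this order, such as Psmd8 and Psmb4, lie too close to be ranked, since the level per kilobase also depends on the transcript chosen. The share of all counts that went to the 33 members was 0.722% and 0.728% in Ctrl, 0.517% and 0.512% in Oxali, 0.532% and 0.543% in Combo200, 0.543% and 0.561% in Combo2000, 0.711% and 0.718% in IFN200, and 0.813% and 0.777% in IFN2000. The 6 libraries with Oxali therefore all lay below the 6 without it, and both IFN2000 libraries lay above Ctrl.

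The first comparison asks what Oxali alone did. Of the 32 members tested, 30 fell and 1 rose in edgeR's quasi-likelihood test at an adjusted p under 0.05 (Benjamini-Hochberg over all genes tested, as for every adjusted p here), and Psmd10 was not called. Over all genes 32.8% were called lower and 34.8% higher, so calls were common in this comparison, but split evenly, while the members' calls were on the lower side. The members' median log2 fold change was -0.56, while the median of all genes tested was 0.02. All 31 subunit and chaperone genes lay below the Ctrl mean in both Oxali libraries, with per-library medians of -0.56 and -0.59 on the log2 scale. Psma5, Psmd3 and Psmd1 lost more than 50% of their level, and 25 of the 31 genes lost at least 25%. These are amounts of mRNA relative to the rest of the library. Fewer transcripts per cell and a change in the other transcripts cannot be told apart here.

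**Figure D1:**
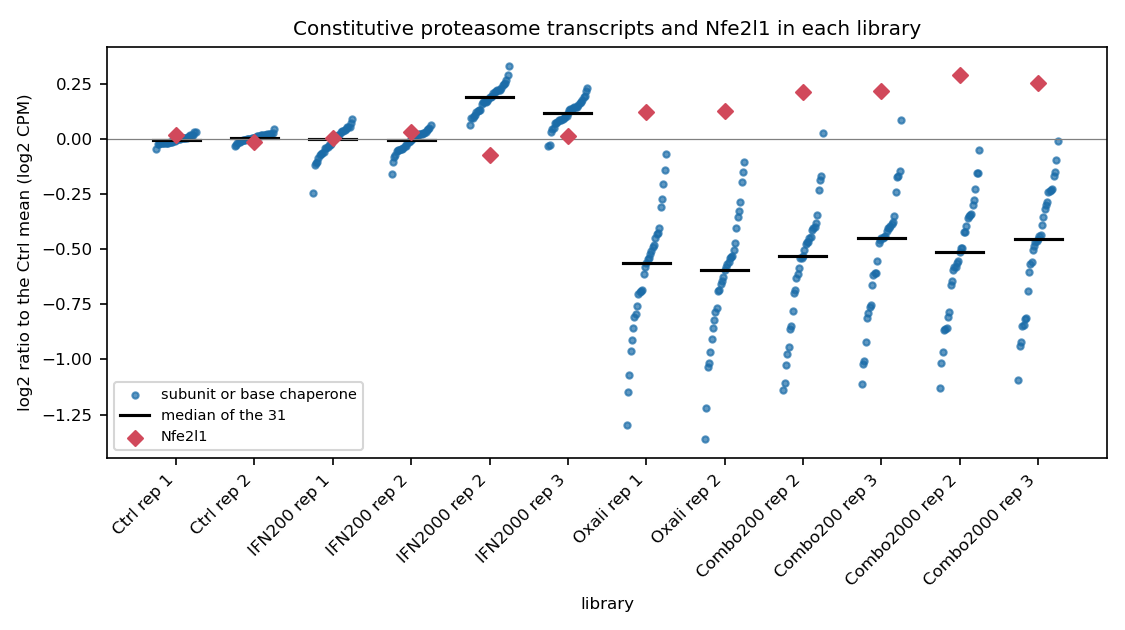
Log2 ratio of each library's CPM to the Ctrl mean (vertical axis) for 31 subunit and base chaperone genes (blue points), their median (black line) and Nfe2l1 (red diamonds), by library (horizontal axis). The medians sit between -0.45 and -0.59 in the 6 libraries with Oxali and between -0.01 and 0.19 in the others, while Nfe2l1 lies above 0 in all 6 libraries with Oxali.

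In the alpha ring all 7 tested genes fell with Oxali, with a median log2 change of -0.67. Psma5 fell the most of all members. Psma5 read 174 and 179 CPM in Ctrl, 71.8 and 68.7 in Oxali, 81.8 and 87.1 in Combo200, 96.7 and 98.2 in Combo2000, 168 and 175 in IFN200 and 207 and 195 in IFN2000. The Oxali and Ctrl libraries do not overlap, and Psma5 was higher in each Combo library than in either Oxali library. Its log2 fold change in Oxali vs. Ctrl was -1.33 (SE 0.0465, adjusted p = 5.23e-15). Psma6 fell the least in the ring. Psma6 read 221 and 226 CPM in Ctrl, 179.9 and 183 in Oxali, 190.2 and 198 in Combo200, 191 and 201 in Combo2000, 224 and 221 in IFN200 and 261 and 247 in IFN2000. Its groups with Oxali lay below every library without it, with -0.30 (SE 0.0416, adjusted p = 2.71e-06) in Oxali vs. Ctrl. Psma3, Psma1, Psma2, Psma4 and Psma7 ranged between -0.48 and -0.76. A 60-base overlap with an antisense RNA on the other strand, which had 3 counts in all, touches Psma5, and one of 114 bases with AY074887, which had 9 counts in all, touches Psma4.

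All 4 non-catalytic beta genes fell with Oxali, with a median log2 change of -0.59 and within a narrow range of -0.54 to -0.77. Psmb4 read 300.3 and 293 CPM in Ctrl, 183 and 164 in Oxali, 204 and 214 in Combo200, 199 and 202 in Combo2000, 251 and 266 in IFN200 and 323 and 307 in IFN2000. The 2 Oxali libraries lay below every other library, and IFN200 lay below Ctrl without overlap. Psmb4 changed by -0.77 (SE 0.0494, adjusted p = 4.11e-11) in Oxali vs. Ctrl. Psmb2 read 157 and 167 CPM in Ctrl, 111 and 111 in Oxali, 121 and 122 in Combo200, 126 and 138 in Combo2000, 169.9 and 169 in IFN200 and 191 and 182 in IFN2000. Psmb2 was lower in all 6 libraries with Oxali than in any without it and changed by -0.54 (SE 0.0471, adjusted p = 3.76e-09).

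Among the 6 base ATPases, all of which fell with a median of -0.47, Psmc1 fell the most and Psmc6 the least. Psmc1 read 236 and 242 CPM in Ctrl, 138 and 135 in Oxali, 139 and 138 in Combo200, 137 and 148 in Combo2000, 244 and 243 in IFN200 and 269.5 and 259 in IFN2000. Psmc1 levels with Oxali were close to each other whether or not IFNγ was added, and the Oxali change was -0.81 (SE 0.0423, adjusted p = 1.96e-12). Psmc6 read 189.5 and 181 CPM in Ctrl, 168 and 167 in Oxali, 165 and 165 in Combo200, 166 and 173 in Combo2000, 189.9 and 189 in IFN200 and 214 and 199 in IFN2000. Psmc6 fell by 9.57%, -0.15 (SE 0.0422, adjusted p = 0.00499), the smallest fall that was called. Psmc3 read 243 and 243 CPM in Ctrl, 180.3 and 172 in Oxali, 184 and 185 in Combo200, 191 and 197 in Combo2000, 233 and 238 in IFN200 and 264 and 258 in IFN2000. Psmc3 shares 215 bases of exon with Slc39a13 on the opposite strand, and whether the counting used the strand is not given in the sources used here, so reads of the pair may be shared.

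The 3 base subunits without ATPase activity all fell, with log2 changes of -1.04 (Psmd1), -0.998 (Psmd2) and -0.56 (Psmd4). Psmd1 read 316 and 315 CPM in Ctrl, 150.4 and 156 in Oxali, 155 and 157 in Combo200, 156 and 167 in Combo2000, 319.6 and 321 in IFN200 and 352 and 335 in IFN2000. Psmd1, a scaffold of the base, fell by 51.5% in Oxali, -1.04 (SE 0.0414, adjusted p = 3.21e-14), and no combination library exceeded 166.5 CPM. Psmd4 read 265 and 263 CPM in Ctrl, 181 and 178 in Oxali, 193 and 194 in Combo200, 197 and 206 in Combo2000, 274 and 273 in IFN200 and 318 and 298 in IFN2000. The ubiquitin receptor Psmd4 changed less, -0.56 (SE 0.0403, adjusted p = 2.63e-10), and was higher in all 4 Combo libraries than in both Oxali libraries.

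All 8 lid genes fell, with a median of -0.75. Psmd3 read 382 and 389.7 CPM in Ctrl, 174 and 166 in Oxali, 175 and 178 in Combo200, 176 and 181 in Combo2000, 359 and 374 in IFN200 and 440.1 and 439 in IFN2000. Psmd3, a structural subunit of the lid, reached at most 180.8 CPM in the 6 libraries with Oxali and at least 358.7 in the others, and the Oxali change was -1.18 (SE 0.0392, adjusted p = 2.51e-15). Psmd14 read 137 and 141 CPM in Ctrl, 105 and 109 in Oxali, 109 and 106 in Combo200, 109.7 and 114 in Combo2000, 143 and 141 in IFN200 and 162 and 155 in IFN2000. Psmd14, the deubiquitinase of the lid, changed the least of the 8, -0.38 (SE 0.0421, adjusted p = 1.36e-07). Psmd7 and Psmd13 each fell by 0.91 on the log2 scale, and the values of Psmd6, Psmd12, Psmd11 and Psmd8 ran from -0.80 to -0.52. Psmd13 shares 342 bases of exon with Sirt3 on the opposite strand. The 3 members whose windows hold the antioxidant response element core stood at different places in the order, Psmd12 at -0.70, Psmd9 at -0.30 and Psmc6 at -0.15.

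The base chaperones changed least of the subunit and chaperone groups, with a median of -0.20. Psmd9 read 63.8 and 64.2 CPM in Ctrl, 53.0 and 50.9 in Oxali, 46.2 and 54.0 in Combo200, 50.1 and 54.4 in Combo2000, 61.3 and 61.7 in IFN200 and 68.2 and 62.8 in IFN2000. Psmd9 and Psmd5 fell in Oxali, at -0.30 (SE 0.0637, adjusted p = 0.00035) and -0.20 (SE 0.0412, adjusted p = 0.000235). Psmd10 read 43.6 and 41.9 CPM in Ctrl, 40.7 and 39.8 in Oxali, 43.6 and 45.3 in Combo200, 41.3 and 42.4 in Combo2000, 43.3 and 39.7 in IFN200 and 44.6 and 41.8 in IFN2000. Psmd10, also called gankyrin, overlapped between Ctrl and both Combo groups, and its Oxali change of -0.09 (SE 0.0567, adjusted p = 0.183) was not called and turned positive, still small, with library totals as the scaling or with the length and GC offset. Psmd9 shares 1849 bases, 25.5% of its annotated exons, with the noncoding RNA Gm26745 on the opposite strand, so its count is uncertain.

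**Figure D2:**
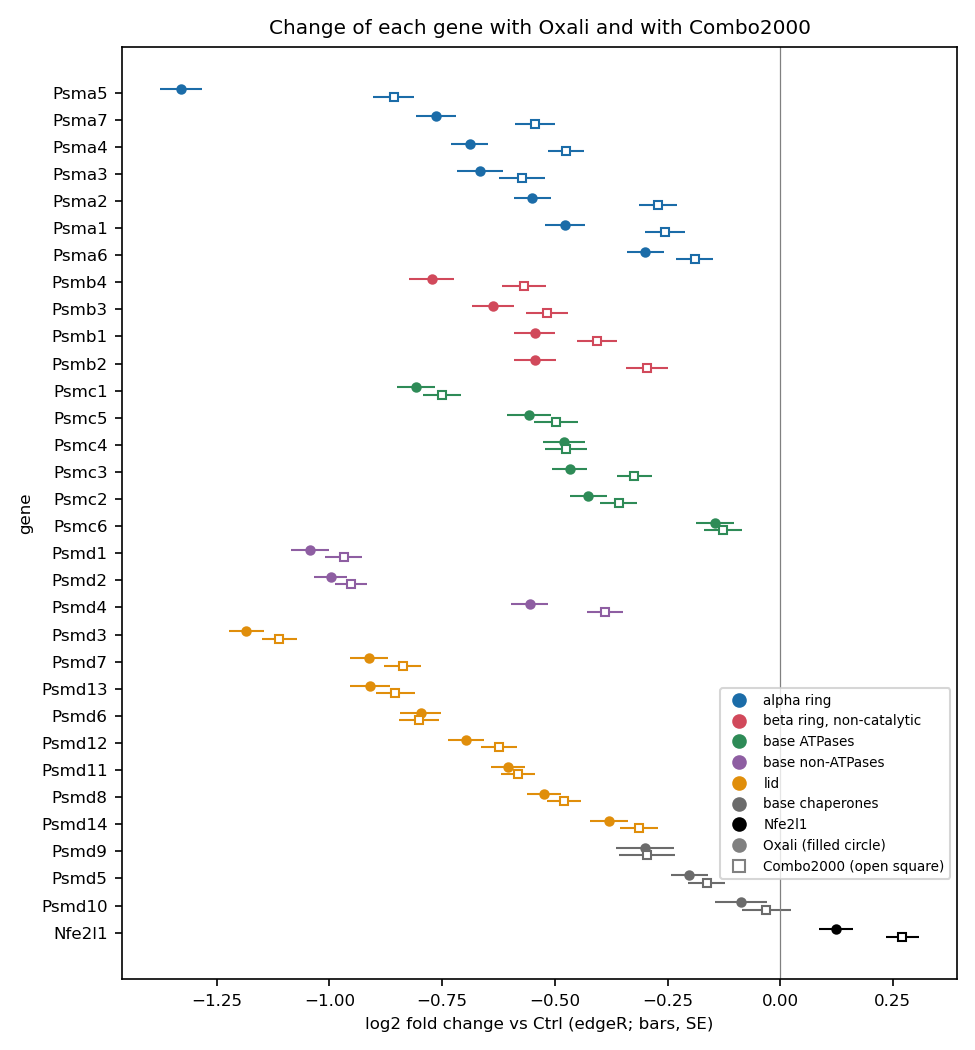
Log2 fold change against Ctrl (horizontal axis, edgeR, bars show SE) for each of the 32 tested members (vertical axis), coloured by role, in Oxali (filled circles) and Combo2000 (open squares), 2 libraries per group. Psma5 (-1.33) and Psmd3 (-1.18) fell most with Oxali, Psmd10 (-0.09) and Psmc6 (-0.15) changed least among subunits and chaperones, and Nfe2l1 lies to the right of 0 in both.

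Across the 31 genes the Oxali change did not follow transcript length (Spearman rho -0.02), and tended to be larger for genes of higher level per kilobase (rho -0.32) and of higher GC content (rho -0.30). These genes share libraries, and the Ctrl level enters both axes of the level relation, so the coefficients are descriptions. The SD of log2 level per kilobase over the 31 genes was 0.953 in Ctrl and 0.860 in Oxali.

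Nfe2l1 moved the other way, by amounts that lay within the quartiles of all genes tested. Those quartiles were -0.337 and 0.463 in Oxali vs. Ctrl, -0.345 and 0.473 in Combo200 vs. Ctrl and -0.343 and 0.466 in Combo2000 vs. Ctrl. In these comparisons 34.8%, 35.6% and 35.7% of all genes were called higher. Nfe2l1 read 367 and 359 CPM in Ctrl, 395 and 396 in Oxali, 419.9 and 421 in Combo200, 443 and 432 in Combo2000, 364 and 370.2 in IFN200 and 344 and 366 in IFN2000. Both Oxali libraries lay above every library without Oxali, and the Combo libraries lay above the Oxali libraries. The log2 fold changes against Ctrl were 0.12 (SE 0.0372, adjusted p = 0.00619) in Oxali, 0.21 (SE 0.0371, adjusted p = 3.92e-05) in Combo200 and 0.27 (SE 0.0371, adjusted p = 2.15e-06) in Combo2000, rises of 8.99%, 16.01% and 20.7%. The Oxali rise was small and was not called without Ctrl replicate 2 (0.11, adjusted p = 0.0507). With IFNγ alone Nfe2l1 stood at 0.02 (SE 0.0372, adjusted p = 0.966) in IFN200 and -0.03 (SE 0.0373, adjusted p = 0.647) in IFN2000, neither called.

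**Figure D3:**
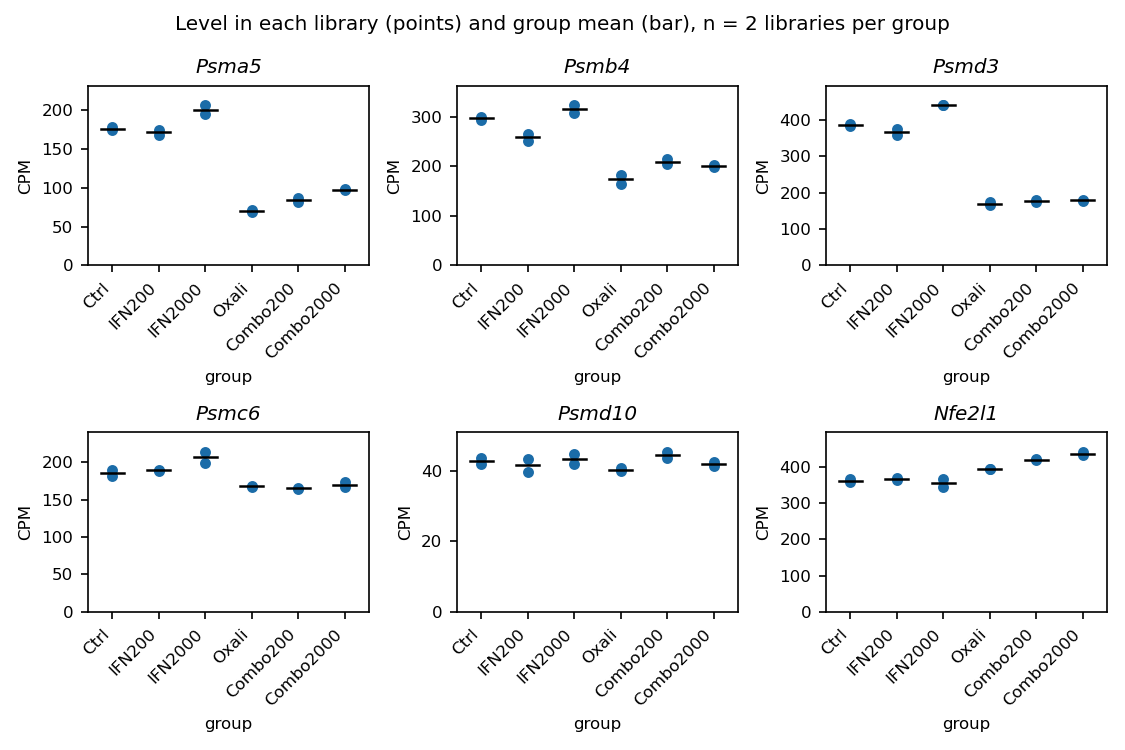
CPM (vertical axes, from 0) of 6 members in each library (points) with the group mean (bar), 2 libraries per group, groups on the horizontal axis. Psma5, Psmb4 and Psmd3 are lower in every library with Oxali than in any without it, Psma5 stands at 71.8 and 68.7 CPM in Oxali and 96.7 and 98.2 in Combo2000, and Nfe2l1 is higher in all libraries with Oxali.

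The genes that work with these members were read from lists chosen by function. In Oxali vs. Ctrl, the comparison given here, 32.8% of all genes were called lower and 34.8% higher. In either direction that is 67.6%, against 60% (ubiquitin genes) to 100% in these lists. Counts near these shares do not set a list apart. With Oxali the 3 constitutive catalytic genes fell as well, Psmb7 at -0.82 (SE 0.0417, adjusted p = 1.25e-12), Psmb6 at -0.29 (SE 0.0528, adjusted p = 6.21e-05) and Psmb5 at -0.25 (SE 0.0874, adjusted p = 0.0151), while the 3 immunoproteasome genes that replace them rose (Psmb8 3.90 (SE 0.3308), Psmb9 3.45 (SE 0.2848), Psmb10 0.75 (SE 0.0621)). Psmb8 and Psmb9 started near the floor, with 4 and 4 counts and 7 and 4 counts in the Ctrl libraries. In Oxali Psmb8 read 3.09 and 3.39 CPM, Psmb9 3.04 and 3.44, and Psmb10 48.9 and 50.7. The constitutive catalytic genes read 21.2 and 19.8 (Psmb5), 80.8 and 74.8 (Psmb6) and 61.6 and 59.1 (Psmb7). Of the 5 core assembly chaperones 4 fell, among them Pomp at -0.56, and Psmg4 was not called. Of 4 other cap genes 3 fell (Adrm1, Sem1 and Uchl5, -0.19 to -0.31), and Usp14 was not called. The activator genes Psme1 and Psme2, whose ring replaces the cap in antigen processing, rose by 0.46 and 0.49, and Psme3 fell by 0.51. Of the 11 genes that process Nfe2l1 protein 9 fell, led by the extraction ATPase Vcp at -0.90 (SE 0.0433, adjusted p = 5.79e-13) and including the deglycosylase Ngly1 at -0.61 and the protease Ddi2 at -0.37, and 2 rose, Btrc at 0.51 and Ufd1 at 0.45. Of 6 tested genes for bZIP factors related to Nfe2l1 or its partners and for the adaptor Keap1, 4 fell, among them Mafg at -0.77 and the related factor Nfe2l2 at -0.59, Bach1 rose by 0.24, and Keap1 was not called. Of the 5 ubiquitin genes Rps27a and the activating enzyme Uba1 fell (-0.55 and -0.57) and Ubb rose by 0.34.

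The next comparison asks what IFNγ alone did. In IFN200 no member was called by edgeR, of 0.114% called among all genes, and the members' median was -0.01 with a range of -0.20 (Psmb4) to 0.07 (Psmb2). DESeq2 also called 0 members. Psmb4 stood at -0.20 (SE 0.0485, adjusted p = 0.211). In IFN2000, 20 of the 32 members rose and none fell, where 8.39% of all genes were called higher and 8.47% lower. The changes were small, with a median of 0.15 (10.8%) and a largest rise of 0.28 (SE 0.0409, adjusted p = 0.000128) in Psma2. All 7 tested alpha genes rose, as did 2 of 4 non-catalytic beta genes (Psmb2 and Psmb3), 4 of 6 ATPases, Psmd1 and Psmd4 of the 3 other base subunits and 5 of 8 lid genes, and none of the 3 chaperones nor Nfe2l1 was called. Psma2 read 208 and 202 CPM in Ctrl, 139 and 141 in Oxali, 157 and 161 in Combo200, 167 and 173 in Combo2000, 213 and 211 in IFN200 and 258 and 240.1 in IFN2000. Psma2 in both IFN2000 libraries lay above all others.

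The IFN2000 libraries also differed in other properties, and the part of these in the rise was not tested. Genes with shorter transcripts read higher in IFN2000 replicates 2 and 3 (Spearman rho between length and log2 ratio to Ctrl -0.365 and -0.198 over 13024 genes, against -0.01 to 0.15 in the other libraries), and the members' transcripts are short, with a median of 1770.5 bases against 2889 for all tested genes. With an offset that removes the trends on length and GC content, 17 members rose (9.06% of all genes called higher) and the median was 0.10. Without IFN2000 replicate 2, the library with T-cell marker reads, 7 rose (background 3.31%). Without IFN2000 replicate 3, 26 did (12.2%). Leaving out Ctrl replicate 1 or 2 left 8 (2.37%) or 13 (4.90%). Psma2, Psmd4, Psmd3, Psma1, Psma4, Psmd7 and Psmd14 were the 7 called without IFN2000 replicate 2, and these 7 were also called with the offset. Among the pathway lists in IFN2000, Psmb6 and Psmb7 rose by 0.22 each, Pomp, Psmg1 and Psmg4 by 0.20 to 0.37, and 4 of the 11 genes that process Nfe2l1 fell (Ddi2, Ngly1, Syvn1 and Sel1l, -0.14 to -0.26), against immunoproteasome rises of 1.297 to 5.55. Over all genes 8.39% were called higher and 8.47% lower. These list values come from the fit without the offset, and the alternative settings were summarized for the members only.

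**Figure D4:**
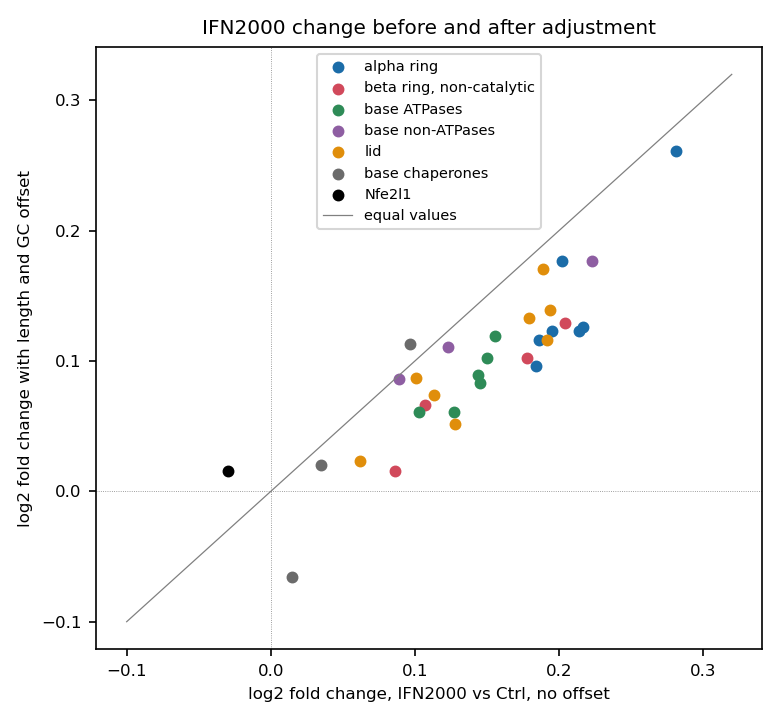
Log2 fold change in IFN2000 vs. Ctrl without (horizontal axis) and with (vertical axis) the length and GC offset for the 32 tested members, coloured by role, with the line of equal values. Most subunits lie below the line, between 0.02 and 0.26 with the offset, and Psma2 stays highest at 0.26.

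Between the IFNγ doses, 26 members were higher in IFN2000 than in IFN200 and none was lower, with 11.3% of all genes called higher and a members' median of 0.16. The count was 17 with the length and GC offset (10.2%) and 12 without IFN2000 replicate 2 (4.74%). Psmb4 rose the most, by 0.29 (SE 0.0482, adjusted p = 0.000401), from the lower level it had in IFN200.

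With both agents the pattern was that of Oxali. In Combo200 vs. Ctrl 30 members fell and Nfe2l1 rose (33.1% of all genes lower and 35.6% higher), with a median of -0.48, and in Combo2000 vs. Ctrl the counts were also 30 and 1 (33.5% and 35.7%), with a median of -0.48. Against IFNγ alone, 30 fell and Nfe2l1 rose in Combo200 vs. IFN200 (33.5% and 36.5%, median -0.46) and likewise in Combo2000 vs. IFN2000 (33.8% and 38.5%, median -0.62). In each of these comparisons Psmd10 was the member not called. With the length and GC offset the medians were -0.393 in Combo200 vs. IFN200 and -0.494 in Combo2000 vs. IFN2000. Without IFN2000 replicate 2 the Combo2000 vs. IFN2000 median was -0.581. The Ctrl comparisons share the Ctrl libraries, and each Combo group enters more than 1 comparison, so the counts are not independent of each other.

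The comparison of each combination with Oxali asks what IFNγ added in cells that also had Oxali. In Combo200 3 members were higher than in Oxali, Psma5 at 0.27 (SE 0.0477, adjusted p = 0.00241), Psmb4 at 0.27 (SE 0.0494, adjusted p = 0.0033) and Psma2 at 0.18 (SE 0.0419, adjusted p = 0.0223), and none was lower, where 1.58% of all genes were called higher. None of these 3 was called without Oxali replicate 2 or without Combo200 replicate 3. In Combo2000 10 members were higher than in Oxali and none lower, where 3.37% of all genes were called higher. They were 5 of 7 alpha genes, 2 of 4 non-catalytic beta genes, Psmc3, Psmd4 and Nfe2l1, and no lid gene or base chaperone. Psma5 rose the most, by 0.47 (SE 0.0472, adjusted p = 6.28e-07), or 38.6%, and still stood at -0.86 (SE 0.0447, adjusted p = 1.53e-12) against Ctrl. Psma2 at 0.28 (SE 0.0418, adjusted p = 0.00016), Psmb2 at 0.25 (SE 0.0469, adjusted p = 0.00199) and Nfe2l1 at 0.15 (SE 0.0369, adjusted p = 0.0246) followed the same direction. The Nfe2l1 call was lost in 7 of 22 alternative settings, among them leaving out any 1 of the 4 libraries compared (adjusted p up to 0.199). The count was 3 without Combo2000 replicate 3 (2.18% of all genes) and 5 without Oxali replicate 2 (2.01%).

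Psma1 read 229 and 232 CPM in Ctrl, 165 and 166 in Oxali, 175 and 172 in Combo200, 190.2 and 196 in Combo2000, 239 and 235 in IFN200 and 281 and 254 in IFN2000. Psma4 read 147 and 149.8 CPM in Ctrl, 91.9 and 92.2 in Oxali, 98.8 and 101 in Combo200, 105 and 108 in Combo2000, 158 and 150.4 in IFN200 and 172 and 172 in IFN2000. Psma7 read 261 and 256 CPM in Ctrl, 153 and 152 in Oxali, 159 and 169.8 in Combo200, 173 and 182 in Combo2000, 252 and 258 in IFN200 and 307 and 285 in IFN2000. In each of these alpha genes the Combo2000 libraries lay above the Oxali and Combo200 libraries without overlap. The Combo2000 vs. Oxali changes were 0.22 (SE 0.0439, adjusted p = 0.00333), 0.21 (SE 0.0407, adjusted p = 0.00228) and 0.22 (SE 0.0453, adjusted p = 0.00466) for Psma1, Psma4 and Psma7. The remaining called genes were Psmb4 at 0.21 (SE 0.0494, adjusted p = 0.0176), Psmd4 at 0.17 (SE 0.0402, adjusted p = 0.0176) and Psmc3 at 0.14 (SE 0.0386, adjusted p = 0.0379), and Psmc3 was called under 6 of the 22 alternative settings. The alpha ring median was 0.22 and the non-catalytic beta median 0.17, against 0.06 in the lid, 0.06 in the ATPases and 0.003 over all genes. Between the combinations, Psma5 alone was higher in Combo2000 than in Combo200, by 0.21 (SE 0.0459, adjusted p = 0.0226), where 1.21% of all genes were called higher. That call was lost when any 1 of the 4 libraries compared was left out (adjusted p up to 0.453 over the alternatives).

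Whether IFNγ acted differently with and without Oxali was tested as an interaction, the IFNγ change with Oxali minus the IFNγ change without it. At 200 pg 2 members were called and both were positive, Psmb4 at 0.47 (SE 0.0693, adjusted p = 0.000888) and Psma5 at 0.31 (SE 0.0645, adjusted p = 0.0255), where 0.562% of all genes were called higher. For Psmb4 the interaction joins a value of -0.20 in IFN200 vs. Ctrl to 0.27 in Combo200 vs. Oxali, and for Psma5 it joins -0.04 to 0.27. At 2000 pg Psma5 was the member called, at 0.29 (SE 0.0639, adjusted p = 0.0192), where 2.12% of all genes were called higher, since IFN2000 vs. Ctrl gave 0.19 and Combo2000 vs. Oxali 0.47. Psmb4 was called in all 22 alternative settings at 200 pg, while Psma5 was called in 12 of 22 at 200 pg and in 17 of 22 at 2000 pg, and leaving out Ctrl replicate 1 or 2, or Oxali replicate 2, ended the Psma5 calls at both doses. For Nfe2l1 the interaction at 2000 pg was 0.18 (SE 0.0525, adjusted p = 0.0788) and was not called.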

How the data were processed

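The values the authors deposited are unnormalized read counts, 1 row per gene symbol, for 12 poly(A) RNA-seq libraries made with a stranded kit. The study's methods name STAR for alignment to GRCm38 with GENCODE models and featureCounts for counting, while the submitters' processing notes name STAR 2.7.3a and RSEM 1.3.0 with no role. The strand setting of the counting is not given in the sources used here. All 12 columns were used. Genes were kept by filterByExpr (minimum count 10, minimum total 15) and tested with edgeR 4.0.16 (R 4.3.3, quasi-likelihood F test, TMM scaling, a mean per group in 1 model of all libraries), with Benjamini-Hochberg adjustment over all 13177 genes and a threshold of 0.05. SE was taken as the size of the log2 fold change over √F. CPM are counts scaled by edgeR to a common total with TMM factors, and library totals set their counting precision. Transcript lengths and gene positions come from a later GENCODE release on GRCm38, promoter windows from RefSeq.

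The members and lists were chosen with earlier results of these data known. Values in every library are given for Nfe2l1, for the genes with the largest and smallest Oxali change in each role of 3 or more genes, and for members called in an interaction or in a combination against Oxali. Alternatives were DESeq2 1.42.0, RLE, upper-quartile and library-total scaling, no filter or a mean of 50 counts, only the groups compared, a replicate block, a length and GC offset, both together, and each library left out. No library pair of a group agreed within sampling noise (chi-square per degree of freedom 1.71 to 9.15). A further epithelial marker is not reported here.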

Additional observations from a re-analysis of the deposited data

Results flagged for a closer look

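For 2 genes the change with IFNγ differed between cells with and without Oxali in the test of that difference. Psmb4, a non-catalytic subunit of the beta ring, had an interaction of 0.47 on the log2 scale at 200 pg IFNγ (edgeR, adjusted p = 0.000888). Both Combo200 libraries lay above both Oxali libraries and both IFN200 libraries below both Ctrl libraries. The Psmb4 change in IFN200 vs. Ctrl was itself not called (-0.20, adjusted p = 0.211 in edgeR). At 2000 pg the Psmb4 interaction was not called. Psma5, a subunit of the alpha ring, had an interaction of 0.31 at 200 pg (adjusted p = 0.0255) and of 0.29 at 2000 pg (adjusted p = 0.0192). Over the 22 alternative settings the adjusted p ran from 1.42e-12 to 0.0332 for Psmb4, from 0.000528 to 0.318 for Psma5 at 200 pg and from 0.000215 to 0.122 for Psma5 at 2000 pg. Groups of 2 libraries are too small to test a single library as an outlier.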

How the results depend on the processing

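The Oxali result held under every alternative run, with 29 to 31 of the members called and a median that moved to -0.504 with upper-quartile scaling, -0.43 with library totals only (which also moved the median of all genes from 0.017 to 0.144) and -0.518 with the length and GC offset, with or without the replicate block. Combo200 vs. Ctrl medians were -0.368, with library totals, and -0.413 and -0.415, with the offset without and with the block; Combo2000 vs. Ctrl medians were -0.438 with upper-quartile scaling, -0.362, -0.399 and -0.413. Leaving out each library in turn gave -0.588 to -0.558, -0.527 to -0.447 and -0.507 to -0.455 for these 3 medians, 0.113 to 0.202 for IFN2000, and 0.109 to 0.134 for Nfe2l1 in Oxali, which was 0.072 and not called with block and offset together. Members called in IFN200 numbered 1 (Psmb4, lower) with no filter, with only the groups compared and with the offset. In IFN2000 the block gave 9 (7 with the offset, median 0.091, and 0.102 with the offset alone), and leave-one-out counts ran from 7 to 26. IFN2000 vs. IFN200 gave 15 with the block, 17 with the offset, 9 with both, and 12 to 29 with a library left out. Combo200 vs. Oxali gave 1 with the block and 0 to 3, Combo2000 vs. Oxali 4 with the block and 3 to 11. Combo2000 vs. Combo200 gave 2 with no filter, with only the groups compared, with the offset and with both, 0 with the block, and 0 to 2. The interaction counts were 1 with upper-quartile scaling or the block and 1 to 2 at 200 pg, and 2 with no filter and 0 to 3 at 2000 pg. The share of all genes called in either direction also moved with the setting. IFN2000 vs. Ctrl had 16.9%, 8.13% with the block and 9.49% with block and offset. For IFN2000 vs. IFN200 it was 22.3%, 12.1% with the block, 17.0% with the offset and 10.5% with both. With the block it went from 1.83% to 1.08% in Combo200 vs. Oxali and from 4.36% to 2.51% in Combo2000 vs. Oxali. IFN200 vs. Ctrl had 0.114%, 0.379% with no filter, 0.397% with only the groups compared and 0.25% with the offset. In Combo2000 vs. Combo200 it was 1.37%, 0.999% with no filter and 1.71% with only the groups compared. There the block gave 1.14%, the offset 2.04% and both 1.97%. The interactions had 0.698% at 200 pg (0.615% with upper-quartile scaling, 0.364% with the block) and 2.72% at 2000 pg (2.92% with no filter). Psmd10 in Combo2000 vs. IFN2000 turned from -0.05 to 0.13 with the offset (adjusted p = 0.0196) and 0.129 with both (adjusted p = 0.0121). Beyond the offset, which removes a trend by construction, and settings with fewer samples, the cause was not tested. Between groups with the same replicate numbers, same-numbered libraries did not deviate together (correlation of deviations -0.046 to 0.017), so no pairing was seen there. Ctrl, IFN200 and Oxali hold replicates 1 and 2, and IFN2000, Combo200 and Combo2000 hold replicates 2 and 3. Comparisons across these sets are partly confounded with replicate number. The check does not cover them, and the block is the setting that takes the number into account. With 2 libraries a group, an exact permutation test of 1 gene could not fall below 0.333.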
